A study of Mus musculus with 13 samples.

Results

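The set described here holds 134 of the 23235 rows of a table of polyadenylated RNA from mouse oocytes, and its members were chosen by their deposited values in all 4 columns of that table. A member had at least 20 in the MTR4-null nucleus, at least 10 times its WT nucleus value, at least 3 times its WT cytoplasm value in the null cytoplasm, more in the null cytoplasm than in the null nucleus, and less than 0.3 times as much in the WT nucleus as in the WT cytoplasm. Rows whose symbols mark microRNAs, small nucleolar RNAs and their Snhg hosts, histones, Zfp genes, metallothioneins, olfactory and vomeronasal receptors, 1 family of RIKEN clones or pseudogenes were left out, among them 14 rows that met every other condition. Because these values chose the members, the differences between null and WT below describe the set, and no test was made of them.

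MTR4-null oocytes lack the RNA helicase MTR4, encoded by Skiv2l2. Each library held 10 nuclei or 10 cytoplasms, pulled apart by micromanipulation and copied from poly(A) tails by Smart-seq2, a low-input method. The labels name day 21 MTR4-null nuclei and day 21 MTR4-null cytoplasms (2 libraries each), WT nuclei at day 14 (2 libraries) and day 21 (3 libraries), and WT cytoplasms at day 14 and day 21 (2 libraries each). They give no strain, promoter, Cre line or number of animals.

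The deposited table has 1 value per gene for each genotype and compartment, so no value here carries an error and no difference can be set against a spread between replicates. The WT columns name no day, so genotype and age cannot be told apart in any comparison of null with WT. Values are the authors' and are called deposited values, because the 4 columns are not on 1 common scale. Totals of the null nucleus and WT nucleus columns were 1396110 and 594034, those of the null cytoplasm and WT cytoplasm columns 3007240 and 6637350, and the depth in reads is unknown. Skiv2l2 stood at 3.54 in null and 13.3 in WT nuclei, and at 4.36 in null and 187 in WT cytoplasms. The 17 oocyte markers in the table made up 2.58%, 3.04%, 3.85% and 4.94% of the null nucleus, WT nucleus, null cytoplasm and WT cytoplasm totals, and none was listed at 0. The 18 markers of granulosa and cumulus cells, the somatic cells around the oocyte, made up at most 0.0075% of any column, and 5, 4, 2 and 2 of them were listed at 0 in the same order. Fewer cells of a type and less RNA per cell cannot be told apart in such pooled samples.

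MTR4 unwinds nuclear RNA and feeds it to the RNA exosome, a multi-subunit complex that degrades RNA from its 3' end. With partner proteins it acts on promoter-upstream transcripts, early-ended transcripts, spliced-out introns and precursors of small nucleolar and ribosomal RNAs, most of which are short-lived and stay in the nucleus. Messenger RNAs are instead exported, translated and, in growing oocytes, stored in the cytoplasm.

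The member with the highest values was Rnu12, the U12 small nuclear RNA of the minor spliceosome, which removes a rare class of introns. It stood at 1161 in null and 13.5 in WT nuclei, and at 4783 in null and 95.2 in WT cytoplasms. Both null values were thus far above the WT value of the same compartment, by 86.1-fold in the nucleus and 50.3-fold in the cytoplasm. Its sequence is shown because it is the only small nuclear RNA of the set. It was read from the GENCODE M21 transcripts (chr15:83149644-83149794, GRCm38, plus strand, 151 bases), 5' to 3', with the AAGGAA stretch, by which U12 pairs with the branch site of minor introns, in capitals.
Rnu12: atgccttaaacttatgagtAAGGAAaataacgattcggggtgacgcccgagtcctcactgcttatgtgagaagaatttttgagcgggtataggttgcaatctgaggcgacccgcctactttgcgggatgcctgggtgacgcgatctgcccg
U12 is not known as a polyadenylated RNA in its mature form, so a value from libraries copied from poly(A) tails need not follow the amount of mature U12.

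Among the 134 members, 88 are annotated by RefSeq as protein-coding, 42 as long noncoding RNA, 3 as transcribed pseudogenes and 1 as a small nuclear RNA. Of the 42 long noncoding members, 37 had a unique entry in GENCODE M21. Of these, 12 start within 1000 bases of the start of a protein-coding gene that runs the other way. The promoters of 4 such members are shown as examples whose windows overlap that of the coding partner. Values of member and partner are given further on. The sequences are from RefSeq on GRCm38.p6 and run 5' to 3' on the member's strand, from 250 bases before its start to 50 bases after. Capitals mark every match, on either strand, to GGGCGG, to CCAAT, to TATAAA or to CCGGAAG, and adjoining GGGCGG matches may overlap. The windows lie at chr5:115631767-115632066 (1110006O24Rik, minus strand), chr17:33909129-33909428 (BC051226, minus strand), chr1:86359334-86359633 (C130036L24Rik, plus strand) and chr17:24528001-24528300 (2610019E17Rik, plus strand).
1110006O24Rik: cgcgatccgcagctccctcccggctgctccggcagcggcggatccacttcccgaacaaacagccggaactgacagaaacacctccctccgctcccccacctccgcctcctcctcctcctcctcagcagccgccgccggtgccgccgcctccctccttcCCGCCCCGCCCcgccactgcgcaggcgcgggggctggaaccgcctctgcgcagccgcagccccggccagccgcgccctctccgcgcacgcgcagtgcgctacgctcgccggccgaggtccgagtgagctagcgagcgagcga
BC051226: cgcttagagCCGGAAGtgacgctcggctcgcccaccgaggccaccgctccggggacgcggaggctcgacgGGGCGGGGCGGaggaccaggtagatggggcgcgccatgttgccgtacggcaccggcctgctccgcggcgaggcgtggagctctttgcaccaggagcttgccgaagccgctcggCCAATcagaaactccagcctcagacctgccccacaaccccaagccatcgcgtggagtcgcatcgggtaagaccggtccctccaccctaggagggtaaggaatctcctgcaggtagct
C130036L24Rik: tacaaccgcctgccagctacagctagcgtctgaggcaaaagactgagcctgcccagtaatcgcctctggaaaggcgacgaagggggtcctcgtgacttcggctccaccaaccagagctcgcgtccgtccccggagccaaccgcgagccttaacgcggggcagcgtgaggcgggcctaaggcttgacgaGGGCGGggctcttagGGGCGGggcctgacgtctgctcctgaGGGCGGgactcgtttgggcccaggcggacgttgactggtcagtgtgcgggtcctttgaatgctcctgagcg
2610019E17Rik: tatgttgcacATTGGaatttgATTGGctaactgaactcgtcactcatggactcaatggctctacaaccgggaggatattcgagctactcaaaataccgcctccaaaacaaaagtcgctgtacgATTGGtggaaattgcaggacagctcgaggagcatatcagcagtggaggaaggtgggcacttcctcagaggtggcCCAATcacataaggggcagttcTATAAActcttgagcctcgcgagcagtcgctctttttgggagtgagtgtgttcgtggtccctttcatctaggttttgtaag
The RefSeq promoter window of the coding partner covers 270 of these bases for Rab35, the partner of 1110006O24Rik. It covers 234 bases for Daxx (BC051226), 228 bases for Ncl (C130036L24Rik) and 188 bases for Traf7 (2610019E17Rik). Not every divergent pair has such an overlap. The windows of Dio3os, 4632427E13Rik and 3110056K07Rik share 0 bases with those of their partners Dio3, Rab30 and Arid4a.

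Promoters in RefSeq's table matched 111 members, with 125 windows among them. The GGGCGG motif, a GC box, was in 61.6% of the members' windows, 63.0% of the windows of other rows at 20 or more in the null nucleus and 35.7% of all promoters. CCGGAAG, the core bound by ETS family factors, was in 22.4%, 21.4% and 8.86% in the same order. CCAAT was in 35.2%, 39.9% and 37.4%, and TATAAA in 12%, 7.46% and 13.6%. For TATAAA the members' share was thus nearer to that of all promoters, and among the 38 windows of long noncoding members it was 21.1% (8 windows). In those 38 windows GGGCGG was in 55.3%, CCAAT in 44.7% and CCGGAAG in 15.8%. No share was taken over other long noncoding genes, so a trait of the gene type and one of the members cannot be told apart here. The median number of CpG pairs per window was 22 for members, 21 for other rows of that level and 7 for all promoters. TGACGTCA, the cyclic AMP element, was in 4%, 3.36% and 1.79%, TGANTCA, the AP-1 element, in 6.4%, 4.99% and 7.81%, and CACGTG, the E-box, in 7.2%, 10.7% and 7.15%. Each motif was searched on both strands. A match is a description of the letters in the window.

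Over the whole table the rule found 0.577% of rows. Of the 5576 rows at 20 or more in the null nucleus whose symbols the rule admits, 8.7% reached 10 times their WT nucleus value and 8.25% reached 3 times their WT cytoplasm value. Both were reached by 307 rows (5.51%), and the 134 members are those that also met the conditions on the order of nucleus and cytoplasm. Members ran from 20.1 through a median of 39.9 to 1161 in the null nucleus, and from 0 through 1.24 to 13.7 in the WT nucleus. In the null cytoplasm they ran from 25.6 through 131 to 4783, and in the WT cytoplasm from 0.725 through 18.3 to 182. In the same order of columns the medians of the 14240 rows with at least 1 in at least 2 columns were 13.0, 5.04, 39.3 and 58.7, so the members' median was above it in the null columns and below it in the WT columns, as the rule asks. Of the members, 96 lay below 50 in the null nucleus, 13 reached 100, and 55 were below 1 in the WT nucleus. All 134 passed that filter on low values, many of them through their null values.

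The ratio of null to WT nucleus ran from 10.2 through 29.1 to 559 over the 131 members above 0 in the WT nucleus. The ratio of null to WT cytoplasm ran from 3.04 through 5.86 to 97.6. In the nucleus 38 members reached a ratio of 50 and 40 stayed below 20, and in the cytoplasm 37 reached 10 and 54 stayed below 5. Members made up 0.589% of the null nucleus total and 0.0510% of the WT nucleus total, and 0.908% of the null cytoplasm total and 0.0576% of the WT cytoplasm total. Long noncoding members had a median cytoplasmic ratio of 9.20, against 5.40 for coding members, while their median nuclear ratios were 29.1 and 28.7. The nuclear figure for long noncoding members covers the 39 of 42 above 0 in the WT nucleus. As log2(value + 1) of null minus WT, which keeps all 42, the nuclear medians were 4.48 and 3.95 and the cytoplasmic 3.15 and 2.36.

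**Figure D1:**
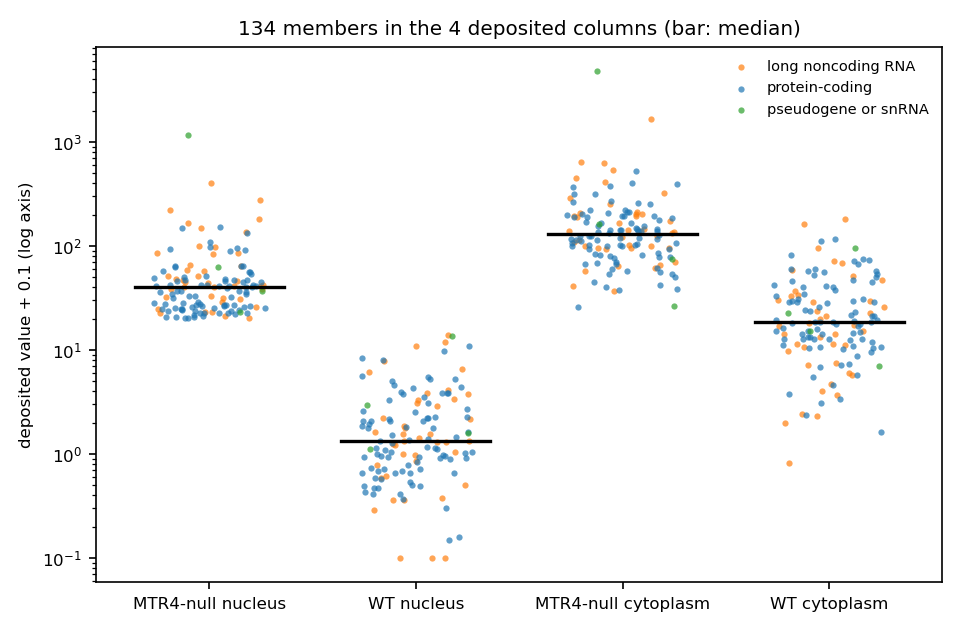
Deposited values of the 134 members in the 4 columns, with 0.1 added for the log axis; each point is a gene, coloured by RefSeq type, and bars are medians. From left to right the medians lie at 39.9, 1.24, 131 and 18.3, and the single green point above 1000 in both null columns is Rnu12.

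On the scale of log2(value + 1), which understates the change of low genes, the members' median difference of null minus WT was 4.06 for nuclei and 2.49 for cytoplasms. Over the 14240 rows it was 0.91 for nuclei and -0.79 for cytoplasms. The column totals moved the same way, the null nucleus total being the higher of the nuclei and the null cytoplasm total the lower of the cytoplasms. At least 2-fold differences, as deposited, were higher in null for 46.3% of rows and lower for 3.69% in the nucleus, and higher for 14.9% and lower for 43.7% in the cytoplasm. Each column was then scaled by the median of its ratios to the row-wise geometric mean. The members' medians became 3.53 (nucleus) and 3.25 (cytoplasm), and those of all rows 0.06 (nucleus) and 0.06 (cytoplasm). On that scale, called relative to the median gene below, 25.8% of rows were higher and 16.2% lower in the nucleus, and 24.2% higher and 18.6% lower in the cytoplasm. Since the rule used these contrasts, nothing is read from the members' place in them.

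The ratio of nucleus to cytoplasm, which depends on the scale of 2 columns, had a median of 0.320 over the members in null and 0.0684 in WT. Over all rows it was 0.316 in null and 0.0734 in WT. Across members, the nuclear and the cytoplasmic log2 difference had a Spearman correlation of 0.48 (n = 134 genes, which share the same 4 columns and are not replicates).

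**Figure D2:**
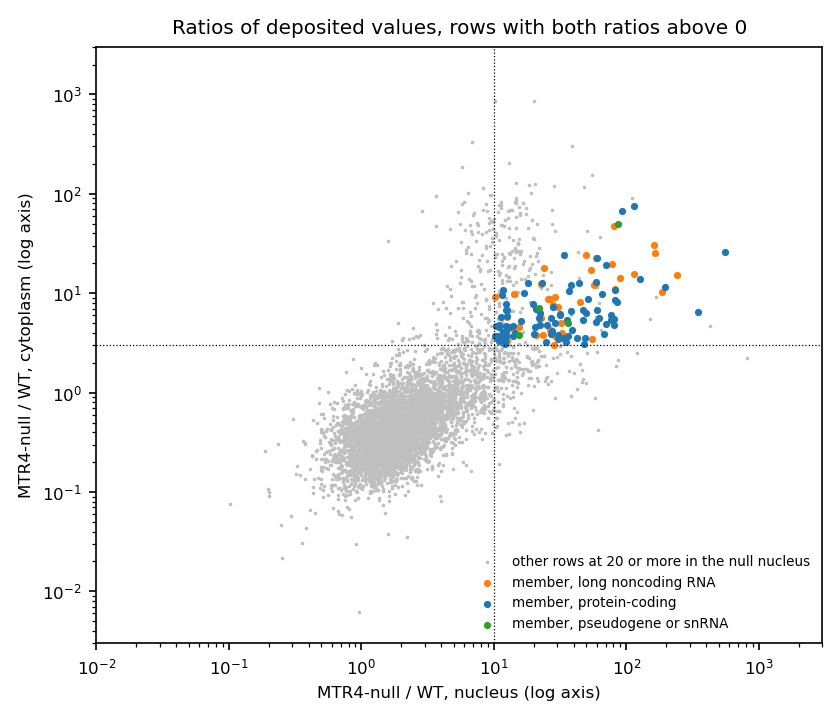
Ratio of null to WT in the nucleus (x, log axis) against the cytoplasm (y, log axis) for rows at 20 or more in the null nucleus with both ratios above 0; dotted lines mark the thresholds of 10 and 3. Grey points are the 5422 other rows within the axes (2 lie outside), and grey points beyond both lines failed another condition of the rule; the 131 members above 0 in the WT nucleus are coloured by type.

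The long noncoding members with the highest null nucleus values were E330023G01, 1700023L04Rik, 1110006O24Rik, Gm10941 and AA465934. E330023G01 stood at 399 in null and 13.7 in WT nuclei, and at 1683 in null and 182 in WT cytoplasms. 1700023L04Rik, which RefSeq now lists as Smkr-ps, stood at 280 in null and 11.8 in WT nuclei, and at 631 in null and 164 in WT cytoplasms. These were the highest WT values among the long noncoding members, so their ratios of 3.84 to 29.1 are not among the highest. 1110006O24Rik had 224 in null and 3.78 in WT nuclei, and 639 in null and 51.0 in WT cytoplasms. Gm10941 had 183 in null and 6.51 in WT nuclei, and 256 in null and 33.6 in WT cytoplasms. Gm20362 (148 and 10.8 in null and WT nucleus, 320 and 72.2 in null and WT cytoplasm) and Gm10512 (136 and 6.04, 536 and 96.2) followed.

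AA465934 is the host of Snord7, a small nucleolar RNA of the C/D box class, which guides the methylation of other RNAs. It stood at 166 in null and 2.80 in WT nuclei, and at 415 in null and 18.2 in WT cytoplasms. The row of Snord7 itself, which the rule does not admit, had 160 in null and 88.3 in WT nuclei, and 880 in null and 0 in WT cytoplasms. In the WT nucleus the value of Snord7 was above that of its host. As for U12, a value from libraries copied from poly(A) tails need not follow the amount of the mature small RNA, so host and small RNA are not compared further. A small nucleolar RNA lay inside 3.10% of the 129 members with a GENCODE entry (4 genes): AA465934, 2610019E17Rik, which holds Snord60, and the coding genes Ell2 and Rnf149.

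Several low long noncoding RNAs were among the members with the highest ratios of value + 1 in the nucleus or the cytoplasm. 1700084E18Rik had 46.3 in null and 0.192 in WT nuclei, and 204 in null and 13.2 in WT cytoplasms. Gm5129 had 101 in null and 0.886 in WT nuclei, and 455 in null and 29.0 in WT cytoplasms. Gm10638 had 45.4 in null and 0.278 in WT nuclei, and 145 in null and 5.72 in WT cytoplasms. All of these lie antisense to a coding gene, as set out below. Gm4532 had 42.5 in null and 0.260 in WT nuclei, and 141 in null and 4.58 in WT cytoplasms. 7420700N18Rik had 41.5 in null and 0.510 in WT nuclei, and 109 in null and 2.31 in WT cytoplasms.

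Only 3 members were listed at 0 in the WT nucleus, and all are long noncoding. BC039966 had 24.5 in the null nucleus, 36.5 in the null cytoplasm and 1.88 in the WT cytoplasm. 1700054M17Rik had 23.2 in the null nucleus, 96.3 in the null cytoplasm and 2.24 in the WT cytoplasm. 3110056K07Rik had 23.1 in the null nucleus, 70.8 in the null cytoplasm and 0.725 in the WT cytoplasm, the highest cytoplasmic ratio of the set at 97.6.

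The 12 coding partners of the divergent long noncoding members were not members. In both compartments each partner had a smaller log2 difference of null minus WT than its own long noncoding member, which the rule had chosen for a large one. Between nuclei the partners had a median log2 difference of 1.36 (7 at least 2-fold higher in null, 0 lower), and between cytoplasms one of -0.57 (1 higher, 4 lower). Relative to the median gene it was 0.51 between nuclei (3 higher, 2 lower) and 0.28 between cytoplasms (2 higher, 1 lower). Over the 14240 rows the deposited shares were 46.3% higher and 3.69% lower between nuclei and 14.9% higher and 43.7% lower between cytoplasms. In WT the partner was above its member in 8 of 12 pairs in the nucleus and 10 of 12 in the cytoplasm. In null it was above in 2 of 12 pairs in each compartment. The rule chose the members, and not the partners, on their null and WT values, so nothing is read from this change of order.

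Rab35, a small GTPase of endosome recycling, had 61.3 in null and 20.3 in WT nuclei, and 190 in null and 289 in WT cytoplasms. It was thus below 1110006O24Rik in both null columns and above it in both WT columns. Ncl, nucleolin, a nucleolar protein of ribosomal RNA processing, had 67.1 in null and 37.4 in WT nuclei, and 212 in null and 560 in WT cytoplasms. Its member C130036L24Rik had 39.9 in null and 1.22 in WT nuclei, and 133 in null and 33.3 in WT cytoplasms, and so lay below Ncl in every column.

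Daxx, a histone H3.3 chaperone, had 47.1 in null and 15.2 in WT nuclei, and 177 in null and 174 in WT cytoplasms. BC051226 had 51.0 in null and 1.69 in WT nuclei, and 124 in null and 16.9 in WT cytoplasms. Member and partner were close in the null nucleus and apart in the WT nucleus. 2610019E17Rik, listed by RefSeq as Rab26os, had 33.3 in null and 3.24 in WT nuclei, and 193 in null and 21 in WT cytoplasms. Its partner Traf7, a ubiquitin ligase, had 44.8 in null and 24.1 in WT nuclei, and 141 in null and 378 in WT cytoplasms.

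The partner with the highest log2 difference in both compartments was that of Dio3os, Dio3, the enzyme that inactivates thyroid hormone. Dio3os had 48.2 in null and 0.259 in WT nuclei, and 61.6 in null and 5.95 in WT cytoplasms. Dio3 had 10.9 in null and 0.0531 in WT nuclei, and 43.3 in null and 6.31 in WT cytoplasms. Both genes of this pair were higher in null in both compartments. At the other end in the cytoplasm, Pofut2, which adds fucose to secreted proteins and partners Gm10941, had 32.0 in null and 41.1 in WT nuclei, and 73.7 in null and 788 in WT cytoplasms. The remaining pairs set 2010320M18Rik beside Pik3r2, 2810013P06Rik beside Ankrd11, 1500015A07Rik beside Grpel2, 4632427E13Rik beside Rab30, 3110045C21Rik beside Hsd17b7 and 3110056K07Rik beside Arid4a.

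**Figure D3:**
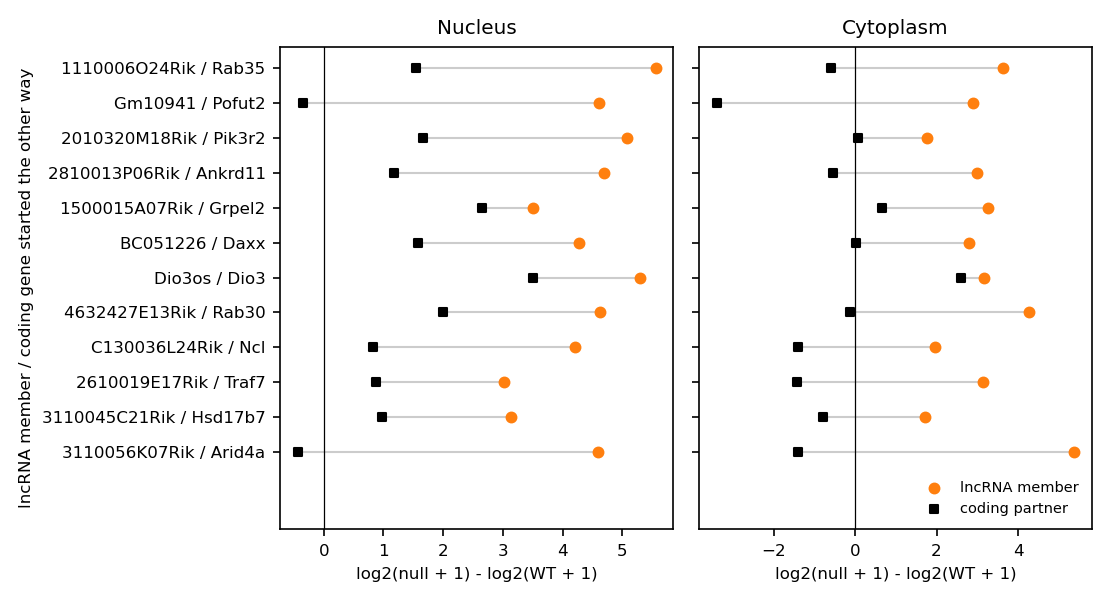
Log2 difference of null minus WT, with 1 added to each value, for the 12 long noncoding members (orange circles) and the coding gene that starts the other way within 1000 bases (black squares), in the nucleus (left) and the cytoplasm (right). Every square lies left of its circle; the partners' medians are 1.36 (left) and -0.57 (right), on the deposited scale.

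A start within 1000 bases of an opposite coding start was found for 32.4% of long noncoding members (12 of 37). It was found for 18.9% of the long noncoding genes among other rows at 20 or more in the null nucleus (30 of 159), for 24.1% of those within the members' range (21 of 87) and for 22.2% of those that were 10-fold up in the null nucleus but not members (12 of 54). An overlap with a coding gene on the other strand was found for 45.9% of long noncoding members (17 of 37) and for 42.1%, 48.3% and 46.3% of those groups in that order. Divergent or antisense placement together covered 24 of the 37. Smart-seq2 does not mark the strand, so reads of these 17 genes and of the coding gene over them cannot be told apart where they overlap. The same limit holds for other members with such an overlap, Mrps34, Yrdc and Mak16 among them. Over members of every type the overlap was found for 32 of 129 (24.8%, against 24.2% of other rows at 20 or more in the null nucleus).

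Over the 18 coding genes that the antisense long noncoding members overlap, the median log2 difference was 0.42 between nuclei and -0.72 between cytoplasms. Of them, 5 were at least 2-fold higher in null nuclei and 1 lower, and 3 higher and 8 lower in null cytoplasms. Over the 14240 rows the medians were 0.91 and -0.79. Relative to the median gene the 18 had medians of -0.44 and 0.01, against 0.06 and 0.06 over those rows. Siah1a, a ubiquitin ligase opposite Gm10638, had 64.4 in null and 32.8 in WT nuclei, and 374 in null and 199 in WT cytoplasms. Dnajb6, a chaperone opposite Gm5129, had 416 in null and 275 in WT nuclei, and 2037 in null and 3773 in WT cytoplasms. Lrrc8a, a subunit of the volume-regulated anion channel, opposite 1700084E18Rik, had 50.9 in null and 31.9 in WT nuclei, and 154 in null and 481 in WT cytoplasms. These 3 overlapped genes were present at high values in both genotypes, where their antisense members were low in the WT nucleus. They were chosen after their values were seen, and not all of the 18 were alike. Rab26, opposite 2610019E17Rik, was at most 0.139 in every column. Ddr2, opposite 3110045C21Rik, had 7.58 in null and 0.0672 in WT nuclei.

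Features that the rule did not use were set beside those of other rows. Long noncoding genes were 31.3% of members (42 of 134), 3.20% of the other rows at 20 or more in the null nucleus (173 of 5402) and 6.44% of such rows within the members' range of null nucleus and WT cytoplasm values (96 of 1491). Among the other rows 10-fold up in null nuclei they were 17.3% (60 of 346), between the members and the other groups. The symbols that the rule bars were left out of every group. The median gene length was 5968 bases for members and 17824, 20713 and 13868 bases for the same groups in that order.

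The difference in length held within types. Coding members had a median of 9224 bases, against 18511, 22186 and 17126 bases, and long noncoding members 2755 bases, against 7674, 6699 and 6250.5 bases. By the GENCODE isoform with the most exons, members had a median of 4 exons, against 8, 9 and 7. Genes with 1 exon made up 10.1% of members (13 of 129), against 1.97%, 2.50% and 6.76%, and genes with at most 2 exons 27.1%, against 5.20%, 7.03% and 13.5%. Among coding members alone, 19.3% had at most 2 exons (17 of 88), against 4.19%, 5.69% and 8.89%. No test was made of these differences, which are descriptions of a set chosen on its values.

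Other transcript features lay nearer to the background. The longest GENCODE transcript had a median of 2197 bases in members, against 2810, 3464 and 2741.5 bases, and a median GC content of 52.4%, against 49.8% to 50.7% in the others. A poly(A) signal (AATAAA or ATTAAA) stood in its last 50 bases in 66.7% of members, against 72.4%, 75.6% and 70.3%. A run of 12 A was present in 10.9%, against 10.0%, 12.7% and 13.8%. The stretch AGATGGCTC of the B2 repeat, a mouse retroelement, was found on the transcribed strand in 6.98% of members, against 7.92%, 10.8% and 21.5%. The members' share was near that of the first group. The stretch GGCGCACGC of the B1 repeat was in 1.55%, against 1.62%, 2.1% and 1.47%.

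**Figure D4:**
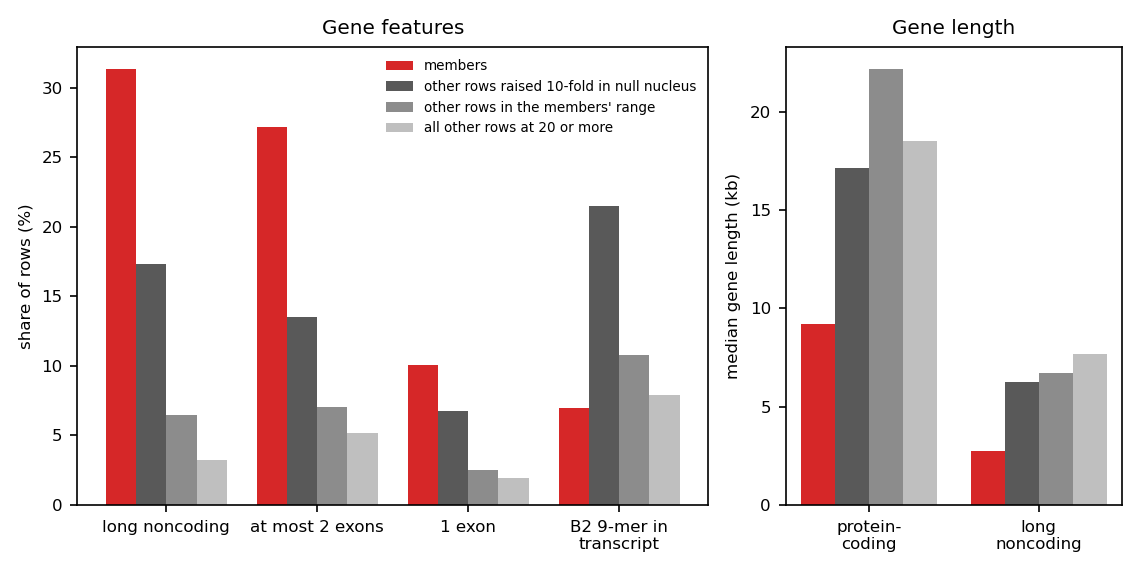
Left, share of genes (%) that are long noncoding, have at most 2 exons, have 1 exon or carry the 9-base B2 stretch; right, median gene length (kb) of protein-coding and long noncoding genes, for members (red) and for other rows 10-fold higher in the null nucleus, within the members' range, or at 20 or more in the null nucleus (dark to light grey). Members have the highest share of long noncoding genes (31.3%) and of genes with few exons (27.1%) and the shortest genes, while the share with the B2 stretch is highest in the other rows 10-fold higher in the null nucleus (21.5%).

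Members lay on most chromosomes. Chromosome 8 held 14 (10.4%, against 5.96% of other rows at 20 or more in the null nucleus) and chromosome 17 held 13 (9.70%, against 5.31%).

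The 88 coding members and Rnu12 were read by what the genes are known to do, and 65 members were placed in 8 groups after their values had been seen. Of these, 11 act in transcription and chromatin, with nuclear ratios from 10.2 to 85.2 and cytoplasmic ratios from 3.23 to 24.4. Jund, an AP-1 subunit, had 46.3 in null and 1.99 in WT nuclei, and 137 in null and 10.8 in WT cytoplasms. Ier2, an immediate early gene, had 21.2 in null and 0.625 in WT nuclei, and 80.4 in null and 3.29 in WT cytoplasms. Both were low in both WT columns, as was Foxo6, a forkhead factor, at 22.6 in null and 0.374 in WT nuclei, and 83.7 in null and 3.71 in WT cytoplasms. Rxrb, a retinoid X receptor that partners other nuclear receptors, had 28.5 in null and 0.334 in WT nuclei, and 77.8 in null and 9.56 in WT cytoplasms. Gsc, the homeobox gene goosecoid of the gastrula organizer, had 44.9 in null and 1.28 in WT nuclei, and 111 in null and 34.3 in WT cytoplasms.

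A group of 4 members act in signalling feedback and cell survival. Socs3, a feedback inhibitor of cytokine receptors, had 41.7 in null and 1.43 in WT nuclei, and 104 in null and 21 in WT cytoplasms. Mcl1, which holds back apoptosis at the mitochondrion, had 24.3 in null and 1.18 in WT nuclei, and 99.0 in null and 21.5 in WT cytoplasms. Dusp2, a phosphatase of MAP kinases, had 41.2 in null and 1.67 in WT nuclei, and 193 in null and 59.5 in WT cytoplasms. Their messenger RNAs are known for short lives in other cells, which is background and was not measured here.

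Among the 9 members of RNA metabolism and translation, Exosc6 encodes a core subunit of the exosome itself. It had 42.2 in null and 3.76 in WT nuclei, and 180 in null and 30.9 in WT cytoplasms. Syncrip, an RNA-binding protein also called hnRNP Q, had 31.2 in null and 0.820 in WT nuclei, and 116 in null and 17.5 in WT cytoplasms. Mak16, a factor of large ribosomal subunit assembly, had 20.4 in null and 0.558 in WT nuclei, and 86.0 in null and 23.4 in WT cytoplasms. Yrdc, an enzyme of transfer RNA modification, was nearer the nuclear threshold at 56.3 in null and 5.18 in WT nuclei, with 367 in null and 81.1 in WT cytoplasms. Rnaset2b, a ribonuclease T2 gene, had 36.8 in null and 0.397 in WT nuclei, and 154 in null and 2.28 in WT cytoplasms. Its near-identical copy Rnaset2a was at most 0.101 in every column, and since reads can be split between such copies the value of each is uncertain.

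The 6 mitochondrial members had nuclear ratios from 11.0 to 195 and cytoplasmic ratios from 3.07 to 11.6. Tomm5, a small subunit of the outer membrane import channel, had 39.9 in null and 0.204 in WT nuclei, and 212 in null and 18.3 in WT cytoplasms. Chchd4, the import oxidoreductase of the intermembrane space, had 34.6 in null and 0.810 in WT nuclei, and 144 in null and 40.3 in WT cytoplasms. Isca2, of iron-sulphur cluster assembly, had 41.2 in null and 1.53 in WT nuclei, and 222 in null and 56.7 in WT cytoplasms. These RNAs were detected in the WT cytoplasm at values near or above the members' median of 18.3. Mrps34, a protein of the small mitochondrial ribosomal subunit, had 39.7 in null and 0.835 in WT nuclei, and 124 in null and 40.3 in WT cytoplasms.

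Small GTPases and membrane traffic took 9 members, with nuclear ratios from 12.3 to 31.3 and cytoplasmic ratios from 3.42 to 12.8. Scamp5, a carrier membrane protein of secretory vesicles, was the coding member with the highest null nucleus value, at 151, against 8.36 in the WT nucleus, and had 381 in the null cytoplasm and 29.8 in the WT cytoplasm. Arl8a, which positions lysosomes, had 36.5 in null and 2.17 in WT nuclei, and 196 in null and 19.6 in WT cytoplasms. Stx16, a syntaxin of the trans-Golgi network, had 42.2 in null and 1.35 in WT nuclei, and 61.6 in null and 10.2 in WT cytoplasms. The ubiquitin group of 7 had nuclear ratios from 11.1 to 68.4. Klhl21, an adaptor of a cullin ubiquitin ligase, had 64.5 in null and 0.944 in WT nuclei, and 224 in null and 57.0 in WT cytoplasms. Rnf11, a RING-finger protein, had 24.5 in null and 2.08 in WT nuclei, and 156 in null and 14.4 in WT cytoplasms.

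Another 10 members are known mainly from other tissues, with nuclear ratios from 10.6 to 80.4 and cytoplasmic ratios from 3.69 to 19.1. Pomc, the precursor of pituitary corticotropin, had 46.8 in null and 0.996 in WT nuclei, and 115 in null and 16.8 in WT cytoplasms. Mog, a protein of myelin, had 40.7 in null and 0.616 in WT nuclei, and 103 in null and 10.5 in WT cytoplasms. Myot, a protein of the muscle Z-disc, had 36.5 in null and 0.475 in WT nuclei, and 93.7 in null and 17.6 in WT cytoplasms. Gp5, a platelet glycoprotein, had 27.2 in null and 0.388 in WT nuclei, and 139 in null and 7.29 in WT cytoplasms. These 4 were chosen after their values were seen. The rule itself asks that every member be above 0 in the WT cytoplasm, so nothing is read from their values there.

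Enzymes and transporters took 9 members, with nuclear ratios from 11.0 to 70.7 and cytoplasmic ratios from 3.40 to 8.81. Slc39a1, a zinc importer, had 56.6 in null and 0.800 in WT nuclei, and 205 in null and 41.8 in WT cytoplasms. Outside these groups, 1810049H13Rik, now Oxld1, had the highest nuclear ratio, 559, at 26.7 in null and 0.0478 in WT nuclei, with 146 in null and 5.65 in WT cytoplasms. 2310014L17Rik, now Rnf225, had 49.6 in null and 0.437 in WT nuclei, and 114 in null and 1.52 in WT cytoplasms. A930018P22Rik had 150 in null and 2.42 in WT nuclei, and 211 in null and 37.4 in WT cytoplasms. Lypd3, a surface protein of the Ly6 family, had 96.6 in null and 1.25 in WT nuclei, and 185 in null and 30.8 in WT cytoplasms. These ratios rest on WT nucleus values of at most 2.42, and at such low values the ratio moves strongly with the denominator.

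Of the 18 fixed gene lists, 2 held any member. The rule found 0.577% of all rows, so a short list without a member is not read as a result about its genes. Among 15 exosome subunits and cofactors, all kept, Exosc6 was the only member. In the nucleus 7 were at least 2-fold higher in null and 0 lower as deposited, and 4 higher and 2 lower relative to the median gene. In the cytoplasm 3 were higher and 11 lower as deposited, and 3 higher and 5 lower relative to the median gene. The list's median log2 difference was 0.97 between nuclei and -1.39 between cytoplasms as deposited, against 0.91 and -0.79 over all 14240 rows. Of those rows 46.3% were higher and 3.69% lower between nuclei, a share close to that of the list, and 14.9% higher and 43.7% lower between cytoplasms. On the scale relative to the median gene the shares were 25.8% higher and 16.2% lower between nuclei, and 24.2% and 18.6% between cytoplasms. Exosc2 had higher values than Exosc6, at 2975 in null and 486 in WT nuclei, and at 4884 in null and 178 in WT cytoplasms. Its log2 difference between nuclei, 2.61, was below the 3.18 of Exosc6, and that between cytoplasms, 4.77, was above 2.50. Exosc2 was no member, its nuclear ratio being below 10 and its WT nucleus value above its WT cytoplasm value. Of 9 genes for MTR4 and its cofactors none was a member.

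Immediate early genes, which cells transcribe quickly after a stimulus, held Ier2 and Jund as members among 14 kept of 19. In the nucleus 6 of the 14 were higher and 0 lower as deposited (5 higher and 1 lower relative to the median gene), and in the cytoplasm 5 were higher and 3 lower (7 higher and 1 lower). The nuclear count as deposited was near the 46.3% of all rows. Between cytoplasms 14.9% of all rows were higher and 43.7% lower as deposited, below and above the list's shares. Relative to the median gene, 25.8% of all rows were higher and 16.2% lower between nuclei, and 24.2% higher and 18.6% lower between cytoplasms. The list's median log2 difference was 0.82 between nuclei and 0.75 between cytoplasms, against 0.91 and -0.79 over all 14240 rows. No test was made of the list. Junb, an AP-1 subunit, had 3.72 in null and 0 in WT nuclei, and 34.9 in null and 1.62 in WT cytoplasms. Ier3 had 1.78 in null and 0.0327 in WT nuclei, and 9.28 in null and 0.305 in WT cytoplasms. Dusp1, by contrast, had 27.5 in null and 32.9 in WT nuclei, and 84.6 in null and 685 in WT cytoplasms. No member came from the lists of p53 targets, the unfolded protein response, oxidative stress, heat shock, metal response, interferon response, coding hosts of small nucleolar RNAs, nuclear-retained long noncoding RNAs, regulated splicing factors or housekeeping genes, nor from any cell type marker list. With 0.577% of all rows found by the rule, nothing is read from these absences. The rule bars symbols starting with Mt1 or Mt2, so Mt1 and Mt2 of the metal response list could not be members. That list made up 0.166% of the null and 0.0147% of the WT nucleus total, and 0.145% and 0.0138% of the cytoplasm totals. The conditions on nucleus against cytoplasm likewise keep out rows beyond those cut-offs on the deposited scale. As the columns are not on 1 common scale, these conditions need not keep out every RNA held in the nucleus.

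Around the thresholds the set has no visible edge. Just inside the null nucleus minimum lay Fam123b (20.1), 4921531C22Rik (20.3) and Mak16 (20.4), and just outside Gm19784 (19.8), 2510039O18Rik (19.7) and Gm13034 (19.7). For the nuclear ratio, Cdk2ap1 (10.2), 2610019E17Rik (10.3) and A130010J15Rik (10.3) lay inside, and Ykt6 (9.49), 1810044D09Rik (9.49) and Wtip (9.20) outside. For the cytoplasmic ratio, Gm3925 (3.04), Ppp6r1 (3.06) and Mrps34 (3.07) lay inside, and 4933431G14Rik (2.99), Rpl10l (2.99) and D18Ertd653e (2.96) outside. For null cytoplasm over null nucleus, Chkb (1.09), 1810014B01Rik (1.13) and Ppp1r26 (1.14) lay inside, and Itga4 (0.996), Slc35d2 (0.985) and Gin1 (0.971) outside. For WT nucleus over WT cytoplasm, 2310014L17Rik (0.288), Scamp5 (0.281) and Prkx (0.269) lay inside, and Dcaf17 (0.321), Rhox8 (0.324) and A330049N07Rik (0.347) outside. In the order given, 686, 41, 116, 12 and 39 rows failed that condition alone, so the minimum in the null nucleus kept out the most.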

How the data were processed

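Poly(A) RNA-seq libraries (Smart-seq2, per the labels' protocols) are summarised in 1 deposited table with 4 columns, 1 per genotype and compartment. The values, FPKM by the table's name, are treated as a score in which the authors' averaging and scaling of each column are not given in the sources used here. TopHat2 2.1.1, Cufflinks 2.2.1 and the build mm9 are named in the submitters' processing notes, without their roles. A fit over single libraries was planned, but with 1 column per group no test could be made.

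Members were found by the stated rule. Differences are log2(value + 1), over rows with at least 1 in at least 2 columns, as deposited and after median-ratio scaling. The divisors were 0.594 (null nucleus), 0.279 (WT nucleus), 1.85 (null cytoplasm) and 3.47 (WT cytoplasm). Gene type and length came from RefSeq (GRCm38.p6, 134 of 134 members and 22968 of 23235 rows matched) and structure from GENCODE M21 (129 members and 22710 rows), with Python 3.11.15, pandas 2.3.3 and numpy 2.4.6. The code that applies the rule was checked on simulated rows of known membership, a check of the code and not of the set. Named genes were the 10 members with the highest null nucleus value, the 10 with the highest nuclear and the 10 with the highest cytoplasmic ratio of value + 1, the top 5 noncoding members, members of fixed lists and the rows at each threshold. Genes named by role, by divergent or antisense placement, or as near copies were chosen after their values were seen. The members and lists were chosen with earlier results of these data known. The values of 1 member are not reported here.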

Additional observations from a re-analysis of the deposited data

How the results depend on the processing

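The count of 134 members depended on the thresholds and on the scale of the columns. It was 260 with a null nucleus minimum of 10, 66 with a minimum of 40 and 80 with a cytoplasmic ratio of at least 5, and lay between 94 and 185 under the other 8 settings of thresholds, ratios and symbols. With all conditions applied after median-ratio scaling 22 rows passed, 12 of them members, and after quantile normalization 37 passed, 13 of them members. Keeping only the null nucleus minimum and the 2 ratios on those scales, settings added after seeing the data, gave 243 rows (90 members) and 254 rows (88 members). The nuclear median of the log2 difference was 4.81 with 0.1 added and 2.73 with 5 added, and the cytoplasmic median 3.25 after median-ratio scaling and 3.19 after quantile normalization. All 134 members were above 0 in each of these settings. The share of rows up in both compartments was, among rows whose symbols the rule admits, 2.25% with at least 1 in at least 2 columns as the only filter, 1.52% with no filter, 3.40% after median-ratio scaling and 3.28% after quantile normalization. The excess of long noncoding genes, 28.1 percentage points over other rows at 20 or more in the null nucleus, was 14 points over other rows 10-fold higher in the null nucleus, a comparison added after seeing the data. No paired analysis was possible because the table has 1 column per group and its columns carry no replicate number, and leaving out single libraries was not possible for the same reason. Scaling and thresholds were not varied together, depth is unknown, and WT nucleus values near 0 limit how far the nuclear ratios can be read.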
